A study of Homo sapiens with 3 samples.

Results

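The BCL2 family was described in MDA-MB-231, a line derived from a human breast cancer of the triple-negative kind. The 10 members were taken by symbol from the 22825 genes of the count tables: BCL2, BCL2L1, BCL2L2, MCL1 and BCL2A1 (the guardians), BAX and BAK1 (the effectors), and BCL2L11, PMAIP1 and BBC3 (the BH3-only genes). They were represented by 40 RefSeq transcript records, of which 1 noncoding BAX record carried no symbol and was matched by its record name. A gene's count was that of its record with the largest total, because a read appeared to be counted once for every record it overlapped.

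The data were 3 RNA sequencing libraries of a single group, labelled as biological replicates (n = 3). All cells received a control siRNA at 50 nM on 2 occasions 24 h apart and were harvested 48 h after the second transfection. Cells given a targeting siRNA in the same study are not analysed here. No effect of a treatment could be tested, so the values describe 1 transfected line and the spread between its libraries, as RNA and not as protein.

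Gene counts summed to 68670366, 84888328 and 54517326 in replicates 1, 2 and 3. Of the genes used as markers of this line, VIM stood at 4582 ± 160 TPM (SD, n = 3; TPM is the count per transcript length, scaled to the same total in each library), KRT8 at 751 ± 40.6 TPM and KRT18 at 602 ± 33.9 TPM. ERBB2 ranged over 27.3 to 30.7 TPM, CDH1 averaged 0.609 ± 0.231 TPM and PGR 0.0604 ± 0.00149 TPM, and ESR1 had 3, 3 and 1 counts. Of 6 leukocyte markers 2 reached 1 CPM (counts scaled by TMM-adjusted library size, with no length) in every library; their summed level was 15.3 to 19.2 TPM, mostly LYZ at 14.1 ± 1.67 TPM, with PTPRC at 0.516 ± 0.217 TPM. Endothelial markers summed to 0.936 to 1.32 TPM with 1 of 3 detected, and fibroblast markers to 0.167 to 0.375 TPM with none of 3 detected and DCN at 0 counts.

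The BCL2 family governs the mitochondrial route to apoptosis. BAX and BAK1 encode the proteins that form pores in the outer mitochondrial membrane and so release cytochrome c, the guardians hold them and the BH3-only proteins in check, and BH3-only proteins, which are raised or activated by stress, bind the guardians or the effectors through a short helix called the BH3 domain. Epithelial tumour cells commonly depend on BCL-xL, the main product of BCL2L1, and on MCL1, whereas BCL2 is best known as the guardian of lymphoid cells.

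The helix that gives the BH3-only genes their name is encoded in members of all 3 classes. Its core is shown first because BH3-only proteins bind the other classes through this helix. Each sequence is 42 coding bases of the counted transcript, 5′ to 3′ on the gene's strand, from GENCODE 29 on GRCh38. Capitals mark the leucine codon, the glycine or alanine codon that stands 4 codons after it, and the aspartate codon that follows. The search ran in frame on the coding strand for a leucine codon (CTN, TTA or TTG), 3 codons of any kind, GGN or GCN, and GAT or GAC.
BCL2, chr18:63318349-63318390, minus strand: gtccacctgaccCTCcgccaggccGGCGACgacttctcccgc
BCL2L1, chr20:31721922-31721963, minus strand: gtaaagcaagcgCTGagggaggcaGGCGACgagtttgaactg
MCL1, chr1:150578865-150578906, minus strand: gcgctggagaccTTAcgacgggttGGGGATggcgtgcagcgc
BAX, chr19:48955775-48955816, plus strand: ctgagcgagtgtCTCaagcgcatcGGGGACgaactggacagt
BAK1, chr6:33575387-33575428, minus strand: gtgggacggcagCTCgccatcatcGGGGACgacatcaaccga
BCL2L11, chr2:111150091-111150132, plus strand: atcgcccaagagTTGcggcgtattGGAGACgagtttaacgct
PMAIP1, chr18:59902661-59902702, plus strand: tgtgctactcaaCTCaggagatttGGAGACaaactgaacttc
BBC3, chr19:47226579-47226620, minus strand: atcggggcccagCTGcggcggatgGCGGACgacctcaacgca
Each of these 8 members held exactly 1 match, and BBC3 had an alanine codon where the other 7 had glycine. No match was found in the counted transcripts of BCL2L2 and BCL2A1, which does not show that they lack a BH3 domain, since only this pattern was searched. The pattern is short, and 24.1% of 19720 coding sequences (1 per gene, from its longest transcript) held it.

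A second core separated the multidomain members from the BH3-only genes. It encodes asparagine, tryptophan, glycine and arginine (AAT or AAC, TGG, GGN, then CGN, AGA or AGG, in frame) within the BH1 domain, which forms part of the groove that receives a BH3 helix. All 5 guardians and both effectors held it once, the 3 BH3-only genes did not, and 0.106% of the same coding sequences (21 genes) held it. Capitals mark the 4 codons, and none of these windows overlapped a BH3 window.
BCL2, chr18:63318214-63318255, minus strand: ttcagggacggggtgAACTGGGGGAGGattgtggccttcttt
BCL2L1, chr20:31721787-31721828, minus strand: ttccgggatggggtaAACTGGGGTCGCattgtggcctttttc
BCL2L2, chr14:23308026-23308067, plus strand: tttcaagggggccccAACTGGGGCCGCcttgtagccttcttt
MCL1, chr1:150578376-150578417, minus strand: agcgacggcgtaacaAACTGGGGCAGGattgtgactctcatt
BCL2A1, chr15:79970841-79970882, minus strand: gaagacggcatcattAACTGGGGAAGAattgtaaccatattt
BAX, chr19:48956265-48956306, plus strand: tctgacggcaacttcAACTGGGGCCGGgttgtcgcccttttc
BAK1, chr6:33574169-33574210, minus strand: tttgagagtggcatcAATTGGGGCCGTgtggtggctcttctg

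Transcript levels of the family ran from over 400 TPM to below 1 TPM. BCL2L1 was the highest member and MCL1 the next, BAX, BAK1 and PMAIP1 followed between 63.2 and 113 TPM in every library, and BBC3, BCL2L11, BCL2 and BCL2A1 lay at the low end. Of the 10 members 9 reached 1 CPM in each library, as did 55.6% of the 22825 genes and 67.7% of the 18740 genes with a count. The members together held 0.0970%, 0.0984% and 0.0961% of the gene counts of replicates 1, 2 and 3. Their median level was 5.41 ± 0.05 on the log2(TPM + 1) scale, against 4.60 ± 0.02 for the 12537 detected genes with a length. The median of the members includes BCL2A1, which was below 1 CPM. Members of 100 TPM or more numbered 3, and 15.1% of detected genes with a length reached that level.

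**Figure D1:**
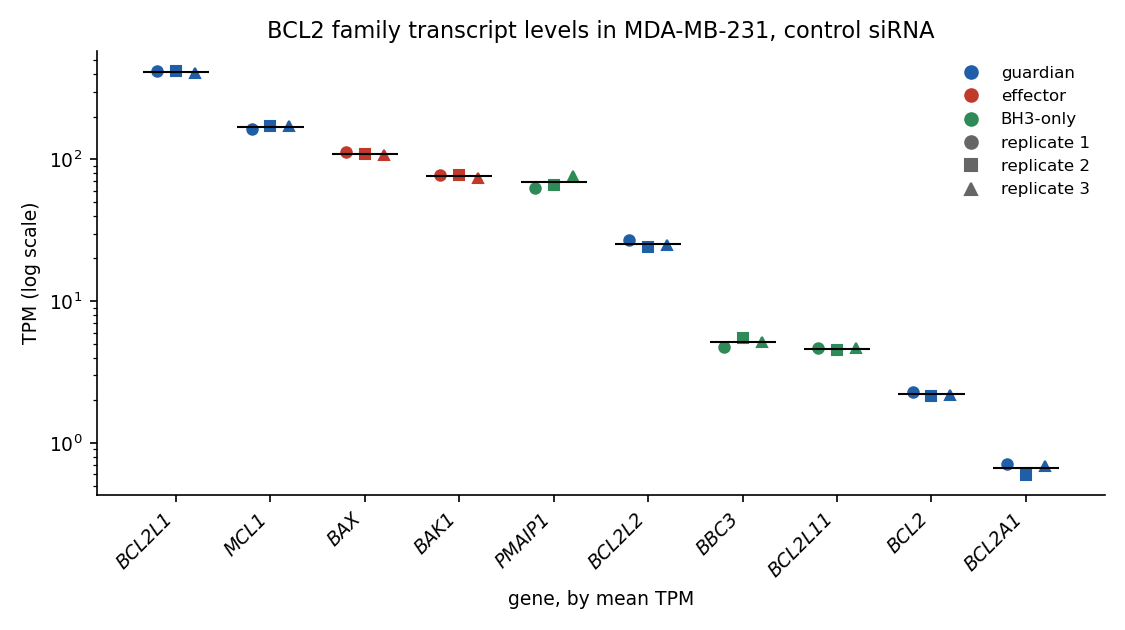
TPM (log scale) of the 10 members in each of the 3 control siRNA libraries, ordered by mean, with points for libraries, a bar for the mean and colour for class. BCL2L1 sits at 404 to 421 TPM and BCL2A1 at 0.597 to 0.713 TPM, and among neighbours the points overlap between BAK1 and PMAIP1.

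Among the guardians, BCL2L1 (chr20:31664452-31723989, minus strand, 3 exons) had 421, 418 and 404 TPM in replicates 1, 2 and 3, from counts of 31325, 38866 and 23777. BCL2L1 encodes BCL-xL, which holds BAX, BAK1 and BH3-only proteins. Its mean of 414 ± 8.83 TPM lay at percentile 97.3 of the 12864 genes that reached 1 CPM in some library and had a length, whose median was 22.4 TPM. The 3 libraries lay close together, with replicate 3 the lowest.

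MCL1 (chr1:150574551-150579738, minus strand, 3 exons) encodes a short-lived guardian that is turned over by the proteasome and bound by NOXA. Its level was 165, 171 and 171 TPM, from counts of 18468, 23960 and 15192, which averaged 169 ± 3.72 TPM (percentile 91.7). BCL2L1 exceeded MCL1 2.45-fold (1.29 ± 0.06 on the log2 scale of TPM), in 3 of 3 libraries. In CPM, without length, the excess was 1.63 ± 0.0657-fold. With each gene's median annotated transcript length, BCL2L1 and MCL1 stood at 472 and 112 TPM. With counts summed over the records of a gene they stood at 407 and 245 TPM. The size of the excess thus depended on the scale.

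BCL2L2 (chr14:23298790-23311759, plus strand, 4 exons), which encodes BCL-w, had 26.8, 24.3 and 24.8 TPM and averaged 25.3 ± 1.33 TPM. That placed it at percentile 53.4, near the middle of the expressed genes, with replicate 1 above the others. BCL2 itself (chr18:63123346-63320128, minus strand, 2 exons) had 2.29, 2.14 and 2.19 TPM from 487, 569 and 369 counts, an average of 2.21 ± 0.0762 TPM (percentile 9.12). BCL2L1 stood 188 ± 6.48-fold above BCL2 in TPM, and 65.7 ± 2.27-fold above it in CPM, where the 7461 bases of the BCL2 transcript do not enter.

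BCL2A1 (chr15:79960889-79971446, minus strand, 2 exons), which encodes the guardian BFL-1 and is typical of leukocytes, was the single member below 1 CPM. It had 21, 22 and 16 counts (exact 95% Poisson intervals of 13.0 to 32.1, 13.8 to 33.3 and 9.15 to 26.0 counts, for counting error only). These correspond to 0.713, 0.597 and 0.687 TPM, or 0.307, 0.260 and 0.292 CPM. A count of 0 allows up to 0.0439, 0.0354 and 0.0548 CPM (3 counts), so the gene was above that floor in every library. Leukocyte markers lay at the levels given above, and their part in the BCL2A1 counts was not tested; in bulk RNA a few cells of another type and a little RNA in every cell cannot be told apart.

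Both effectors lay in the upper part of the distribution, at percentiles 86.7 and 80.7. BAX (chr19:48954815-48961798, plus strand, 5 exons) had 113, 109 and 108 TPM from 4364, 5257 and 3298 counts, an average of 109.7 ± 2.66 TPM. BAK1 (chr6:33572547-33580293, minus strand, 6 exons) had 78.1, 77.8 and 73.9 TPM from 4754, 5924 and 3555 counts, an average of 76.6 ± 2.35 TPM. BAX normally rests in the cytosol until activated, whereas BAK resides on the mitochondrial membrane. Per length BAX was 1.43-fold above BAK1 in 3 of 3 libraries (0.52 ± 0.03 on the log2 scale), and without length (CPM) the ratio of BAX to BAK1 was 0.911 ± 0.0210. The order of the effectors thus differed between TPM and CPM.

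Among the BH3-only genes, PMAIP1 (chr18:59899948-59904306, plus strand, 2 exons), which encodes NOXA, a ligand of MCL1 and BFL-1, had 63.2, 66.2 and 77.0 TPM from 3513, 4602 and 3380 counts. Replicate 3 was the highest, and the mean was 68.8 ± 7.23 TPM (percentile 78.5). BBC3 (chr19:47220822-47232766, minus strand, 4 exons), which encodes PUMA, a protein that binds all the main guardians, had 4.71, 5.54 and 5.19 TPM from 247, 363 and 215 counts. BCL2L11 (chr2:111119378-111168447, plus strand, 5 exons), which encodes BIM, a further ligand of all the main guardians, had 4.69, 4.49 and 4.65 TPM from 699, 836 and 548 counts. BBC3 averaged 5.15 ± 0.414 TPM and BCL2L11 4.61 ± 0.109 TPM, at percentiles 19.1 and 17.6. PMAIP1 thus exceeded BBC3 13.4 ± 1.44-fold and BCL2L11 14.9 ± 1.54-fold in TPM. In CPM the excess over BBC3 was 14.2 ± 1.52-fold and that over BCL2L11 5.57 ± 0.574-fold.

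Neighbours in the order of mean TPM were compared by their 3 libraries. BAK1 and PMAIP1 overlapped, with a difference of 0.16 ± 0.19 on the log2 scale. BBC3 lay above BCL2L11 by 0.16 ± 0.15, the lowest BBC3 library (4.71 TPM) standing just above the highest BCL2L11 library (4.69 TPM), and BCL2L11 was 2.56 ± 0.264-fold above BBC3 in CPM. The other 7 neighbouring pairs did not overlap: MCL1 exceeded BAX 1.54-fold, PMAIP1 exceeded BCL2L2 2.71-fold, BCL2L2 exceeded BBC3 4.92-fold, BCL2L11 exceeded BCL2 2.09-fold and BCL2 exceeded BCL2A1 3.32-fold, beside the 2 pairs given above. The order of MCL1 and BAX turned with records summed, at 245 TPM for MCL1 and 262 TPM for BAX. It also turned with the alpha record of BAX, described below, at 169 and 182 TPM. The order of PMAIP1 and BCL2L2 turned with median transcript lengths, at 42.4 TPM for PMAIP1 and 63.6 TPM for BCL2L2, and in CPM PMAIP1 ranged over 51.4 to 61.7 and BCL2L2 over 36.8 to 40.3.

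**Figure D2:**
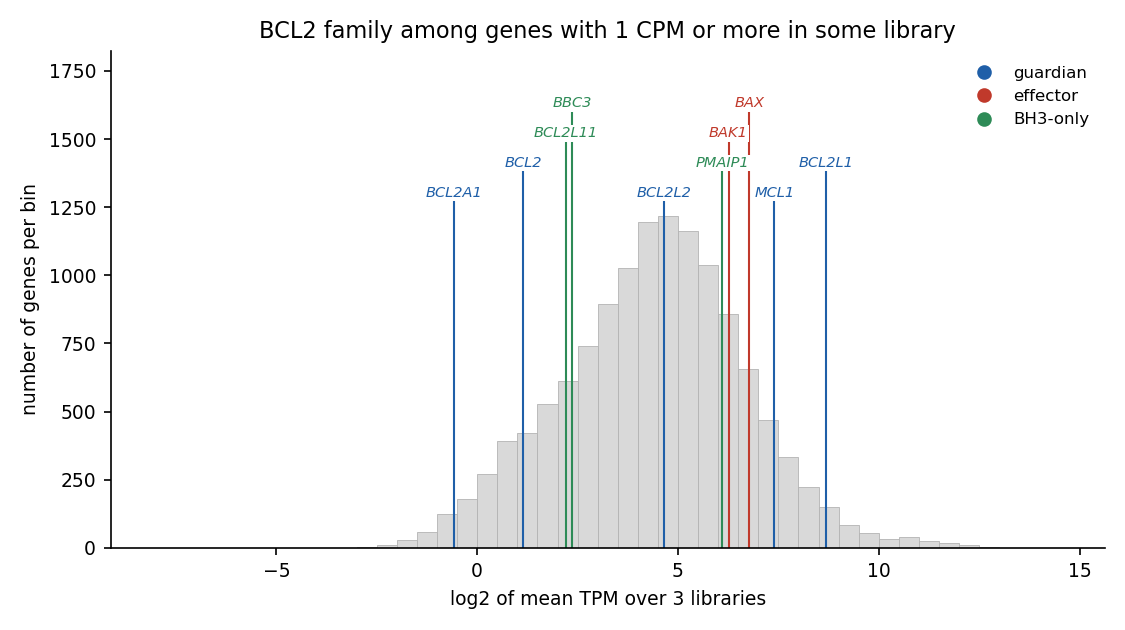
Number of genes per bin of log2 mean TPM over the 3 control siRNA libraries, for genes that reached 1 CPM in some library, with a line for each member coloured by class. BCL2L1, MCL1 and BAX lie at percentiles 97.3, 91.7 and 86.7, BCL2L2 at 53.4, and BCL2 and BCL2A1 at 9.12 and 1.61. BCL2A1 was below 1 CPM in every library, so it is placed against these genes without being one of them.

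Set against each other by class, the summed guardian transcripts exceeded those of the other classes, while the middle guardian lay below the effectors. Guardians summed to 615, 615 and 603 TPM, effectors to 191, 186 and 182 TPM, and BH3-only genes to 72.7, 76.3 and 86.8 TPM. The guardian sum was 3.28 ± 0.0508 times the effector sum (3.23, 3.30 and 3.32) and 7.83 ± 0.789 times the BH3-only sum (8.47, 8.07 and 6.95), with replicate 3 the lowest of the second ratio. The spread between libraries was small beside both ratios, but the scale moved them: the first was 5.94 in CPM and 5.49 with median transcript lengths, and the second 11.1 and 11.7.

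The guardian and BH3-only sums in TPM were each carried mostly by a single gene. BCL2L1 made up 67.7 ± 0.705% of the guardian TPM and MCL1 27.6 ± 0.831%, whereas BCL2L2 gave 4.14 ± 0.207%, BCL2 0.361 ± 0.0125% and BCL2A1 0.109 ± 0.0103%. PMAIP1 gave 87.5 ± 0.991% of the BH3-only TPM, and BBC3 and BCL2L11 gave 6.58 ± 0.646% and 5.90 ± 0.550%. With records summed, which counts BCL2L11 reads up to 18 times, PMAIP1 stood at 35.7 TPM and BCL2L11 at 37.0 TPM. The effectors were more even, with BAX at 58.9 ± 0.562% and BAK1 at 41.1 ± 0.562% of their TPM, whereas in CPM BAX (62.0) lay below BAK1 (68.1). Over the 10 members together, BCL2L1 accounted for 47.3 ± 0.803% of their TPM, a total that leaves out the other genes of the family.

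Medians weigh the members equally and gave another order. The median log2(TPM + 1) was 4.72 ± 0.07 over the 5 guardians, 6.53 ± 0.04 over the 2 effectors and 2.62 ± 0.10 over the 3 BH3-only genes. Guardians minus effectors came to -1.77, -1.88 and -1.81 (mean -1.82 ± 0.06), guardians minus BH3-only genes to 2.28, 1.95 and 2.06 (2.10 ± 0.17), and effectors minus BH3-only genes to 4.05, 3.83 and 3.87 (3.92 ± 0.12). Each difference had 1 sign in 3 of 3 libraries. An exact two-sided sign-flip test over 3 libraries cannot give a p below 0.25, so none is given, and genes were not treated as replicates.

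These class differences rest on few genes and on the length given to each. With the median annotated transcript length of each gene in place of that of the counted record, guardians minus effectors turned to 0.29 ± 0.06, and BCL2L2, at 63.6 TPM, then stood above BAK1 at 30.6 TPM. Summing over records, which counts a shared read once per record, turned guardians minus BH3-only genes to -0.39 ± 0.15; BCL2L11 alone has 18 records. Without BCL2A1 the guardians minus effectors difference was -0.47 ± 0.03 and guardians minus BH3-only genes 3.44 ± 0.12. BCL2L1 was the highest and BCL2A1 the lowest member under all 7 scalings tried.

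**Figure D3:**
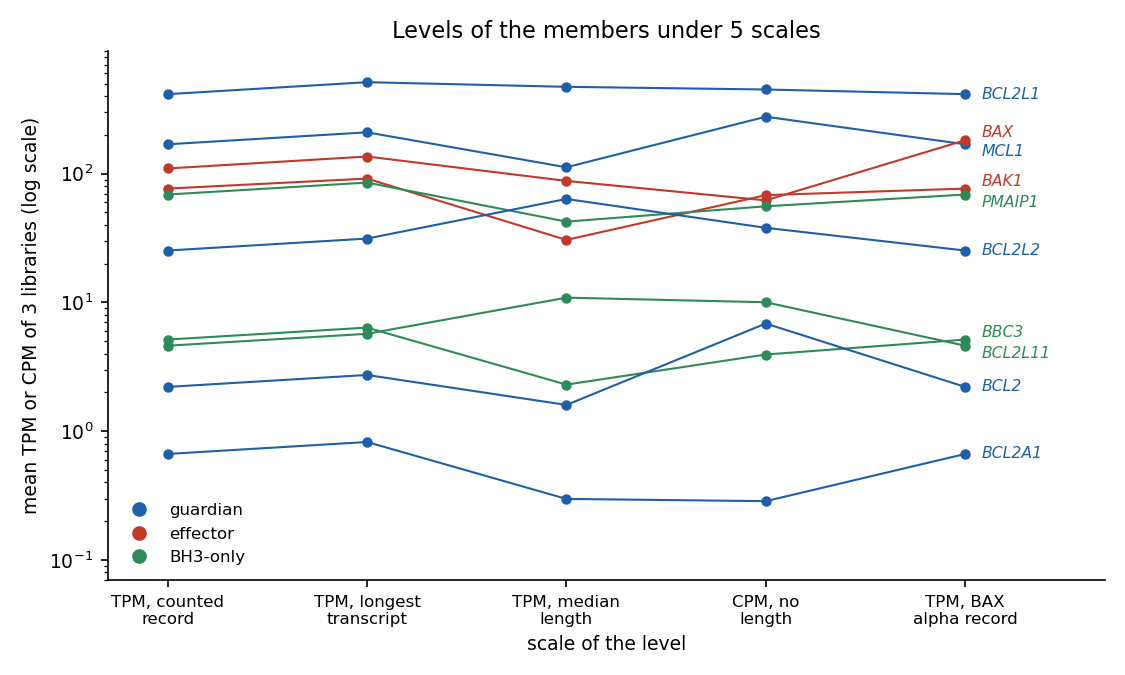
Mean level of each member over the 3 control siRNA libraries (log scale) under 5 of the scalings: TPM with the counted record's length, the longest transcript, the median length, CPM without length, and TPM with the alpha record of BAX. BCL2L1 stays at the top and BCL2A1 at the bottom, BCL2L2 reaches 63.6 TPM with the median length, and BAX passes MCL1 with its alpha record (182 against 169 TPM).

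Pairs of genes whose products bind each other gave ratios that varied little between libraries and more with the scale. BCL2L1 stood 3.78 ± 0.0605-fold above BAX and 5.41 ± 0.0548-fold above BAK1, the effectors it holds. MCL1 stood 2.21 ± 0.106-fold above BAK1, its main partner among the effectors. The ratio of MCL1 to PMAIP1, the guardian over its NOXA ligand, was 2.60, 2.58 and 2.23 (2.47 ± 0.211), and replicate 3 was below the others. These are ratios of TPM. In CPM, BCL2L1 stood 7.26 ± 0.116-fold above BAX and 6.61 ± 0.0670-fold above BAK1, MCL1 4.07 ± 0.195-fold above BAK1 and MCL1 4.99 ± 0.426-fold above PMAIP1. None of them speaks of protein amounts.

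BCL2L1, MCL1, BAX, BCL2, BCL2L11 and BBC3 have splice forms with different actions, and the records of a gene allow a limited view of them. Records of 1 gene share reads and are no independent measurements; what can be read is how many fewer counts a record held when a stretch of sequence is missing from it. For BCL2L1, the record of the short form (BCL-xS, which lacks BH1 and promotes death) differs in its coding sequence from the BCL-xL record by the 189 bases below (chr20:31721655-31721843, minus strand, exonic). Capitals mark the BH1 core.
BCL2L1 stretch absent from the short record: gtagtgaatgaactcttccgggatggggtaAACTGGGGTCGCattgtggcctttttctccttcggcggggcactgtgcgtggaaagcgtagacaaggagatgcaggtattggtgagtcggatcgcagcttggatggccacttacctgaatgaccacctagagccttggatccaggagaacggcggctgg
The short record held 3221, 4086 and 2485 fewer counts than the long one in replicates 1, 2 and 3, or 10.4 ± 0.119% of the long record's count. Those counts overlapped the long record and not the short one, and they made up nearly the same share in every library. They are not counts on the printed stretch alone. The short record shares 2383 of the 2610 bases of the long one, so it also lacks some bases outside the 189 shown. How many of the remaining counts came from the short form cannot be told from record counts.

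The same reading applies to MCL1. The record of its short form lacks a 248-base coding exon (chr1:150578244-150578491, minus strand) that holds the BH1 core, shown in capitals.
MCL1 exon absent from the short record: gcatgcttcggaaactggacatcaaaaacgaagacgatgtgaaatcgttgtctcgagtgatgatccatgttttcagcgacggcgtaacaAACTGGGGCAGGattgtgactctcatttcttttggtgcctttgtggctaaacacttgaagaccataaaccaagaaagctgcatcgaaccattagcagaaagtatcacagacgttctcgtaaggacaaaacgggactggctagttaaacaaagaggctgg
It held 2279, 2949 and 1723 fewer counts than the full record, or 12.0 ± 0.568% of that record's count. A further MCL1 record, which lacks 459 coding bases of the first exon (chr1:150578964-150579422), held 1649, 2137 and 1169 fewer counts, or 8.51 ± 0.710%. These differences are not counts on the missing stretches alone: the short record was matched to a transcript of 1110 bases, against 3932 for the full record, and the further record has 153 exonic bases of its own, whose reads offset its deficit. In both comparisons replicate 3 had the smallest difference as a share.

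For BAX, the level changed with the record chosen. Its largest record is the beta form, which keeps an intron and is 1358 bases long, and it shares 741 of these bases with the alpha record, the usual form of the protein, 793 bases long. The alpha record nevertheless held 96.8 ± 1.46% of the counts of the beta record (4232, 5161 and 3142). Calculated from the alpha record, BAX stood at 187, 182 and 176 TPM (182 ± 5.71), above MCL1 in every library; this alternative was added after the data were seen. With it, guardians minus effectors was -2.18 ± 0.06 and the guardian sum 2.37 ± 0.0482 times the effector sum. The record without symbol, a noncoding form, held 97.3 ± 1.49%, and the remaining records held 91.9 ± 1.37% and 74.5 ± 1.03%.

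For BCL2, the record of the short beta form held 96, 125 and 80 counts, or 21.1 ± 1.23% of the alpha record, whose transcript carries a 3′ UTR of 5279 bases. The transcript matched to the beta record shares 731 bases with the alpha record and has 4280 exonic bases of its own. The percentage is thus a ratio of counts and not the share of a splice form. Of the 18 BCL2L11 records, 16 held a mean of 88.1% or more of the largest. The 2 others, matched to transcripts of 720 and 947 bases where the largest record has 5224, held 83, 112 and 38 counts and 82, 114 and 38 counts. For the first of them these were 11.9%, 13.4% and 6.93% of the count of the largest record, with replicate 3 the lowest. It has 218 exonic bases that the largest record lacks, so these are ratios of overlapping counts and carry no binomial interval. Some of the other 16 records were also matched to short transcripts, down to 243 bases, so the lengths of the BCL2L11 records are uncertain.

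BBC3 records ranged down to 71.1 ± 7.05% of the largest, in the record of 1347 bases with 2 exons. Its count was 73.3%, 76.9% and 63.3% of the largest record's in replicates 1, 2 and 3, and replicate 3 was again the lowest library. It too has bases of its own, 255 of them, so the values are ratios and not shares. The second BCL2L2 record held 100.0% of the first, the second BCL2A1 record had the same counts as the first, and BAK1 and PMAIP1 had a single record each.

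**Figure D4:**
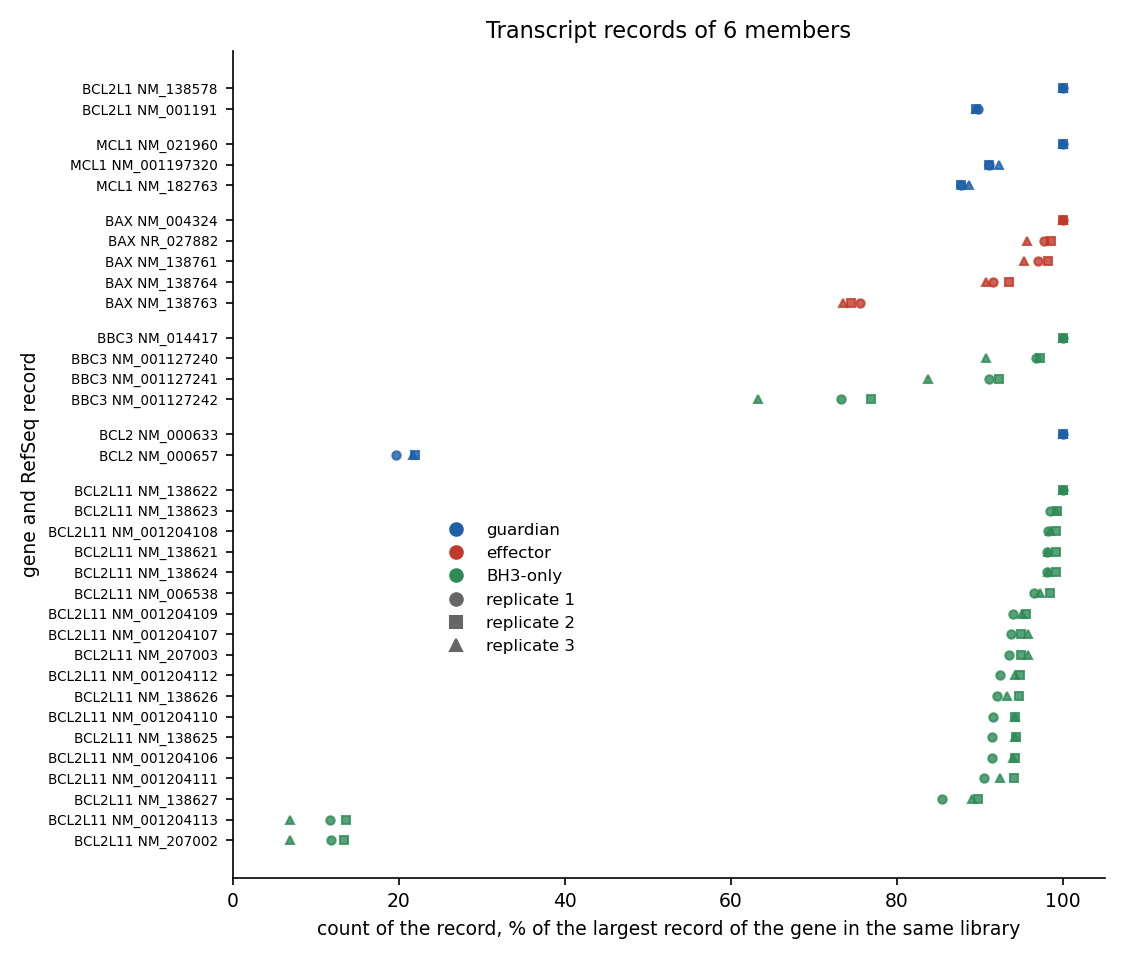
Count of each transcript record as a percentage of the largest record of its gene in the same library, for the 6 members whose records differ, with a shape for each of the 3 control siRNA libraries and colour for class. The short BCL2L1 record lies at 89.6%, 16 BCL2L11 records lie at 85.4% or more in every library and 2 at 6.93 to 13.6%, and the beta record of BCL2 lies near 21.1%.

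Some members overlap other genes in the annotation, and the strand setting of the counting is not given in the sources used here. ABALON, antisense to BCL2L1, covers 37.4% of the counted BCL2L1 transcript, and MIR4435-2HG, antisense to BCL2L11, covers 13.9% of the counted BCL2L11 transcript. MIR4435-2HG had 1137, 1456 and 1011 counts, more than BCL2L11, and no separate count of ABALON was used here. BCL2L2-PABPN1, a readthrough gene on the same strand, covers 16.3% of the BCL2L2 transcript. GGNBP1 covers 4.26% of BAK1 and had 0, 1 and 0 counts. Apart from GGNBP1, reads of these partners cannot be told apart from those of the member in the shared stretch.

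Variation between libraries was called in a share of the members close to that of all genes. An intercept-only edgeR fit with Benjamini-Hochberg adjustment called variation beyond counting error in 5 of the 10 members, against 52.9% of the 14469 genes tested, so the count is no result about the family. By size the differences were small: the coefficient of variation of CPM ran from 1.79% for BCL2L11 to 9.57% for PMAIP1, and the highest library exceeded the lowest 1.04-fold to 1.20-fold. The common coefficient of biological variation over all genes was 0.0544 by edgeR.

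PMAIP1 had the widest range of the members. Its CPM was 51.4, 54.3 and 61.7, or 92.1%, 97.3% and 110.6% of the mean, with an adjusted p of 1.12e-12 by the edgeR fit with Benjamini-Hochberg adjustment. Replicate 3 decided this value, for without it the adjusted p by the same edgeR fit was 0.0534. BCL2L1 was lowest in replicate 3, at 458, 458 and 434 CPM (96.4% of the mean in replicate 3), with an edgeR adjusted p of 5.40e-11, and of 0.938 without replicate 3. BAK1 had 69.5, 69.9 and 64.9 CPM with an edgeR adjusted p of 0.00291, and 0.876 without replicate 3. In these 3 genes replicate 3 stood apart from the other libraries.

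MCL1 had 270, 283 and 277 CPM with an edgeR adjusted p of 7.51e-05, where replicate 1 was lowest. Its call was lost without replicate 1 (edgeR adjusted p of 0.145) and without replicate 2 (0.0603). BCL2L2 had 40.3, 36.8 and 36.8 CPM with an edgeR adjusted p of 0.00233, and its call was lost without replicate 1 (0.992). BAX, BBC3, BCL2L11, BCL2 and BCL2A1 did not pass, with edgeR adjusted p of 0.0754, 0.172, 0.827, 0.658 and 0.881. BBC3 rested on 215 to 363 counts a library and BCL2A1 on 16 to 22. BAX passed without replicate 2 (edgeR adjusted p of 0.0260).

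Base composition moved with the libraries. Over 14231 genes the Spearman correlation of a library's deviation with GC content was 0.41, 0.25 and -0.52 in replicates 1, 2 and 3, given as a description. PMAIP1, high in replicate 3, has the lowest GC content of the members (37.2%), and BCL2L1 and BAK1, low in replicate 3, have 56.9% and 58.8%. BAX (58.9%) was also lowest in replicate 3, at 97.1% of its mean, without a call. BBC3 did not follow that order: it has the highest GC content (69.7%) and stood at 91.7%, 108.7% and 99.6% of its mean in replicates 1, 2 and 3, though without a call. BCL2 and BCL2L11 (both 45.6%), also without a call, were highest in replicate 1, at 103.8% and 101.9%. So was BCL2A1 (39.9%), at 107.3% on few counts. MCL1 (45.1%) was highest in replicate 2, at 102.2%. With offsets for GC content, edgeR adjusted p was 0.00186 for PMAIP1, 1.12e-05 for MCL1, 0.0114 for BCL2L2, 0.565 for BCL2L1 and 0.748 for BAK1. With those offsets 3 members and 39.5% of genes were called, and with each read pair counted once 3 members and 28.5% of genes. Without the filter on low counts, or with the largest single row per gene, 5 members were called, against 44.2% and 52.7% of genes. Without replicate 1, 2 or 3 in turn, 3, 5 and 2 members were called, against 37.8%, 39.2% and 24.2% of genes. When a coefficient of variation of 0.05 between cultures was allowed for, 0 members and 1.15% of genes were called by edgeR. By the same fit, 1 of the 10 members and 1541 of the 14469 genes had an unadjusted p under 0.05. The edgeR adjusted p of PMAIP1 was then 0.428.

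**Figure D5:**
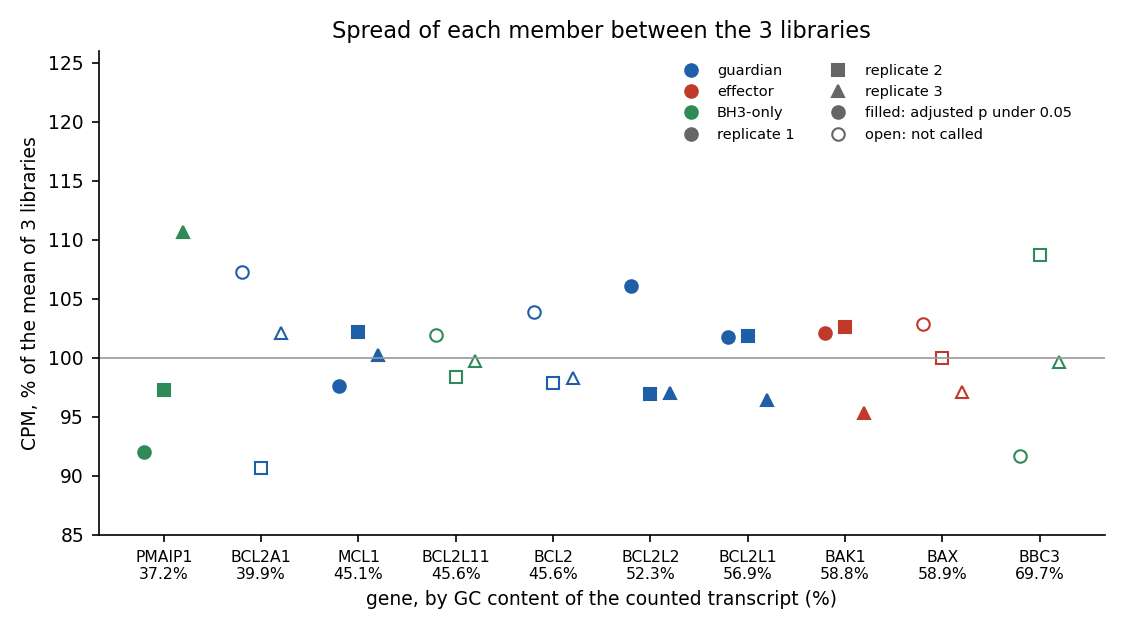
CPM of each member in each control siRNA library as a percentage of its mean, with members ordered by the GC content of the counted transcript and filled points for the 5 members called by edgeR at an adjusted p under 0.05. PMAIP1 reaches 110.6% of its mean in replicate 3, while BCL2L1 and BAK1 stand at 96.4% and 95.3% there.

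Other genes of the pathway were read from 6 lists with 60 genes. Of the 13 other BCL2 family genes 8 were detected, with a median level of 4.59 ± 0.10 (log2(TPM + 1)), and 8 of the 10 tested varied by the edgeR fit. BNIP3 and BNIP3L, BH3-like proteins of mitochondrial autophagy, were the highest at 208 ± 13.8 and 119 ± 6.51 TPM. BCL2L10 had 2, 0 and 0 counts, BCL2L14 5, 2 and 0, and HRK 0, 4 and 0, all too few for a level.

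Downstream of the pore, 13 of 13 apoptosome and caspase genes were detected (median 4.79 ± 0.06), and 8 varied. CYCS, cytochrome c, had 84.3 ± 2.73 TPM and DFFA, the inhibitor of the caspase-activated nuclease, 50.9 ± 0.979 TPM. All 7 inhibitors of apoptosis and their antagonists were detected (median 5.38 ± 0.05), and 4 varied; BIRC5, survivin, had 92.4 ± 0.610 TPM and DIABLO, the antagonist released from mitochondria, 76.4 ± 2.62 TPM. The 3 outer membrane channels had the highest median of the lists, 8.60 ± 0.05, and 2 of 3 varied. VDAC1 stood at 405 ± 1.31 TPM and VDAC2, which recruits BAK to the membrane, at 390 ± 16.9 TPM.

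Upstream, 14 of 14 regulators of BCL2 family transcription were detected (median 4.78 ± 0.07) and 10 varied. ATF4, which induces PMAIP1 under stress, had 275 ± 7.47 TPM, the highest level of that list. Of 10 genes for the turnover of MCL1, NOXA and BIM, 9 were detected (median 4.75 ± 0.04) and 5 varied. HUWE1, a ubiquitin ligase of MCL1, had 103 ± 8.55 TPM and RNF7, a component of the ligase that turns over NOXA, 69.6 ± 3.28 TPM. The counts varying in these lists are to be read against the 52.9% of all genes tested. Several counts fell when a library was left out. The share of all genes fell too, to 37.8%, 39.2% and 24.2% without replicates 1, 2 and 3, so these falls are no result about the lists. The count was 3 of the other BCL2 family genes without replicate 1 and 4 without replicate 3, and 4 of the apoptosome and caspase genes without replicate 1. It was 2 of the inhibitors of apoptosis and their antagonists without replicate 3. For the channels it was 0 without replicate 2 by edgeR (1 at an unadjusted p under 0.05, against 6681 of 14435 genes) and 1 without replicate 1. For the transcription regulators it was 4 without replicate 3, and for the turnover genes 5, 4 and 4 without replicates 1, 2 and 3. With GC offsets the counts of the 6 lists, in the order above, were 6, 7, 6, 3, 4 and 5. The share of all genes was then 39.5%. With a coefficient of variation of 0.05 allowed for, 0 of the 57 genes tested in the 6 lists were called by edgeR. Of these, 3 had an unadjusted p under 0.05, as had 1541 of all 14469 genes.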

How the data were processed

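Total RNA was made into TruSeq RNA libraries and read as pairs of 100 bp, per the labels' protocols. The authors deposited a whole-number count for each RefSeq record, with no normalization. FastQC, TopHat2, Cufflinks and hg19 are named in the submitters' processing notes. Which tool counted reads, with what strand setting, and how reads with more than 1 hit were treated, is not given in the sources used here. Genes with exactly 2 counts (712, 637 and 580) outnumbered those with 1 (487, 400 and 379), so both mates of a pair may have been counted, which would make p-values too small.

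Each library held 42269 records. Copies of a record were summed, and a gene took its record with the largest total over the libraries. No gene name was given for 6937 records; RefSeq accessions assigned 6318 of them, and the other 619 (0.952%, 0.959% and 0.944% of record totals) were left out. TPM used the GENCODE 29 transcript matched to the counted record (95.2% of genes with a count) or else the gene's longest transcript, which together gave a length to 97.8%. Coordinates are from GENCODE 29 on GRCh38, and none were taken from hg19.

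Libraries were scaled by TMM in edgeR 4.0.16 (R 4.3.3). Genes passing filterByExpr entered an intercept-only fit with dispersion 0, whose deviance was set against a chi-square on 2 degrees of freedom, with Benjamini-Hochberg adjustment over all genes tested and a threshold of 0.05. The fit was tested on simulated counts that held counting error only. That test cannot speak to variation between cultures or to mates of a pair counted separately. DESeq2 1.42.0 size factors were an alternative. Class values used log2(TPM + 1), and other computing used Python 3.11.15, numpy 2.4.6, pandas 2.3.3, scipy 1.17.1 and matplotlib 3.10.9. All 10 members are named, with the 2 highest genes of each pathway list, any with 0 counts in a library and genes overlapping a member; 1 gene of this rule and 1 marker are not reported here. Members and lists were chosen with earlier results of these data known.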

Additional observations from a re-analysis of the deposited data

How the results depend on the processing

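Direction of guardians minus effectors depended on length, and that of guardians minus BH3-only genes on how records were joined. Effectors minus BH3-only genes stayed positive in every setting. Guardians minus effectors (-1.82) was 0.29 with median transcript lengths, -0.76 in CPM, -1.93 with records summed, -2.18 with the alpha record of BAX, -1.89 with means over members and -0.47 without BCL2A1; leaving out 1 library gave -1.84 to -1.79. Guardians minus BH3-only genes (2.10) was 2.44 with median lengths, 1.82 in CPM, -0.39 with records summed, 2.28 with a pseudocount of 0.1, 0.91 with means and 3.44 without BCL2A1, and 2.01 to 2.17 with 1 library left out. Effectors minus BH3-only genes (3.92) was 2.15, 2.58 and 1.53 with median lengths, CPM and summed records, 4.28 with the alpha record, 4.13 with the lower pseudocount and 2.79 with means, and 3.85 to 3.96 with 1 library left out. The ratio of guardian to BH3-only sums (7.83) was 11.7 with median lengths and 11.1 in CPM, and 7.51 to 8.27 with 1 library left out. That of guardian to effector sums (3.28) was 5.49, 5.94, 2.26 and 2.37 with median lengths, CPM, summed records and the alpha record, and 3.26 to 3.31 with 1 library left out. The cause of these shifts was not tested beyond what each setting itself changes.

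Members called as varying (5) numbered 0 with a coefficient of variation of 0.05 or of 0.1 allowed for, 3 with each read pair counted once, 3 with GC offsets, and 2 to 5 with 1 library left out (2 without replicate 3, 3 without replicate 1). Over all genes (7653) the counts were 166, 18, 4117 and 5625, and 3571 to 5663 with 1 library left out. DESeq2 size factors, no filter and the largest single row per gene left 5 members called. Members detected stayed at 9 under all alternatives run. No paired analysis was possible because the libraries form a single group. Depth limits BCL2A1 (16 to 22 counts) most.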
